A study of Mus musculus with 10 samples.

Results

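Fc receptors bind the constant part of antibodies, and their activating forms signal through short adaptor chains that carry an immunoreceptor tyrosine-based activation motif (ITAM). The set comprised 10 genes, chosen by symbol: the adaptors Tyrobp and Fcer1g, the Fc gamma receptors Fcgr1, Fcgr2b, Fcgr3 and Fcgr4, the receptors Trem2, Clec5a and Treml4, and the kinase Syk. All 10 were among the 21959 genes of the table and among the 13517 that passed the filter on low counts. The question was which of the receptors moved with the adaptors across 10 tumors, and whether any of them differed between exercised and non-exercised mice. Tumors were started with 4T1, a line of mouse mammary carcinoma, whose cells were injected under the skin of the abdomen of female BALB/c mice aged 5 to 6 weeks. In the exercise group (E, 5 mice) the animals could run voluntarily on a wheel, and in the non-exercise group (NE, 5 mice) they had no intervention. Tumors were collected at 21 days and gave 1 library per mouse, so that the replicates were separate animals. A tumor of this kind is a mixture of 4T1 cells from 1 line with host cells, and the sequencing did not separate them.

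Tyrobp encodes DAP12 and Fcer1g encodes the common Fc receptor gamma chain, and both are small membrane proteins with little outside the cell. A receptor that binds a ligand brings its adaptor together, Src family kinases phosphorylate the tyrosines of the ITAM, and Syk docks on them through its paired SH2 domains. The gamma chain serves Fcgr1, Fcgr3 and Fcgr4, which bind IgG and drive phagocytosis, cytokine release and antibody-dependent killing by macrophages and other myeloid cells. DAP12 serves Trem2, a lipid and lipoprotein receptor of macrophages, Clec5a, a C-type lectin of monocytes and neutrophils, and Treml4, a receptor for dying cells on some macrophages and dendritic cells. Fcgr2b is the inhibitory Fc gamma receptor. It needs no adaptor, and its own tail carries an inhibitory motif (ITIM) that recruits the phosphatase SHIP1.

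The coding sequences that carry the signal are shown first, because they set the adaptors apart from the receptors. Among the 10 members, the letters of an ITAM in the reference annotation (GENCODE, GRCm38) were found in Tyrobp and Fcer1g alone. Each ITAM spans 15 codons, from codon 92 of 114 in Tyrobp and from codon 65 of 86 in Fcer1g, and each is split between exons 4 and 5 of 5. The Tyrobp stretch lies at chr7:30415670-30417382 on the forward strand, and the Fcer1g stretch at chr1:171229889-171230072 on the reverse strand, with the intron left out below. The ITIM of Fcgr2b lies in exon 8 of 8, at chr1:170961071-170961088 on the reverse strand. All are coding sequence, written 5′ to 3′ along the transcript, and capitals mark the tyrosine codons.
Tyrobp ITAM: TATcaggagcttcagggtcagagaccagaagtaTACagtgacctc
Fcer1g ITAM: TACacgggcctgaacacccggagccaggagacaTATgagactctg
Fcgr2b ITIM: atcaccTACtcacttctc

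Fcgr2b, Fcgr3 and Fcgr4 lie close together on chromosome 1 with Fcer1g, and Fcgr2b and Fcgr3 have similar extracellular parts. Of the stretches of 50 bases in the main transcript of Fcgr3, 166 of 1298 (12.8%) also occur in Fcgr2b, and they occur in no other gene. In Fcgr2b, 249 of 3347 (7.44%) occur in Fcgr3 or in other genes, and the other 8 members share none. The longest run common to the pair is 129 bases of coding sequence in exons 3 and 4 of both genes, at chr1:170966674-170968081 in Fcgr2b and chr1:171054167-171057792 in Fcgr3 (GRCm38, reverse strand). Reads that lie wholly inside it fit both genes by sequence. The libraries were paired-end, and how such reads were counted is not given, so that part of either count may be uncertain.
Fcgr2b and Fcgr3: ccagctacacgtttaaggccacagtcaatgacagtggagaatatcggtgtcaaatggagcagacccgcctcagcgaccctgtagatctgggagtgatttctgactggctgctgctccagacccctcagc

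Counted reads per tumor ran from 15045613 (E5) to 23092251 (NE1). A count of 0 in the shallowest library would have allowed up to 0.199 CPM (reads scaled by library total), the value of 3 reads there, and the lowest count of any member was 21 reads. NE1, the most deeply sequenced tumor, was the lowest of the 10 tumors in every member. It was also the lowest in the summed level of the 16 macrophage and monocyte markers, at 1398 CPM against 2934 to 4653 in E and up to 4862 in the other NE tumors. None of the 16 markers was at 0 in all tumors. The sum of 12 skeletal muscle markers ran from 8.87 CPM in NE1 to 30808 in NE4. E5 was the highest in the sums of the fibroblast markers (15469 CPM against 1017 to 5104 in the others) and of the neutrophil markers (289 CPM against 12 to 57.3 in the others). Counts of genes that follow an adaptor are therefore given with and without NE1. In bulk tumor RNA, fewer cells of a type and less RNA per cell cannot be told apart.

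The adaptors were the most abundant members by transcript density (FPKM, the read count scaled by library total and gene length). Tyrobp had 95.9 FPKM ± 25.8 (SD, n = 10) and Fcer1g 90.6 ± 21.4 (SD, n = 10). In CPM scaled by the trimmed mean of M values (TMM), Tyrobp was at 76.7, 58.5, 51.1, 55.1 and 89.7 in E1 to E5 and at 29.4, 63.1, 71.9, 83.0 and 62.2 in NE1 to NE5. NE1 stood well below the others, and the remaining NE tumors lay within the range of E. Fcer1g was at 99.5, 71.3, 61.8, 68.7 and 95.1 CPM in E1 to E5 and at 41.2, 75.1, 95.6, 97.6 and 87.0 in NE1 to NE5. Both adaptors were low in E3 among the exercised tumors and high in E1 and E5. In FPKM, the mean ratio of Fcer1g to Tyrobp over 5 tumors was 0.920 (SD 0.0675) in E and 0.991 (SD 0.0834) in NE, a difference within the spread (exact two-sided permutation test, p = 0.167).

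**Figure D1:**
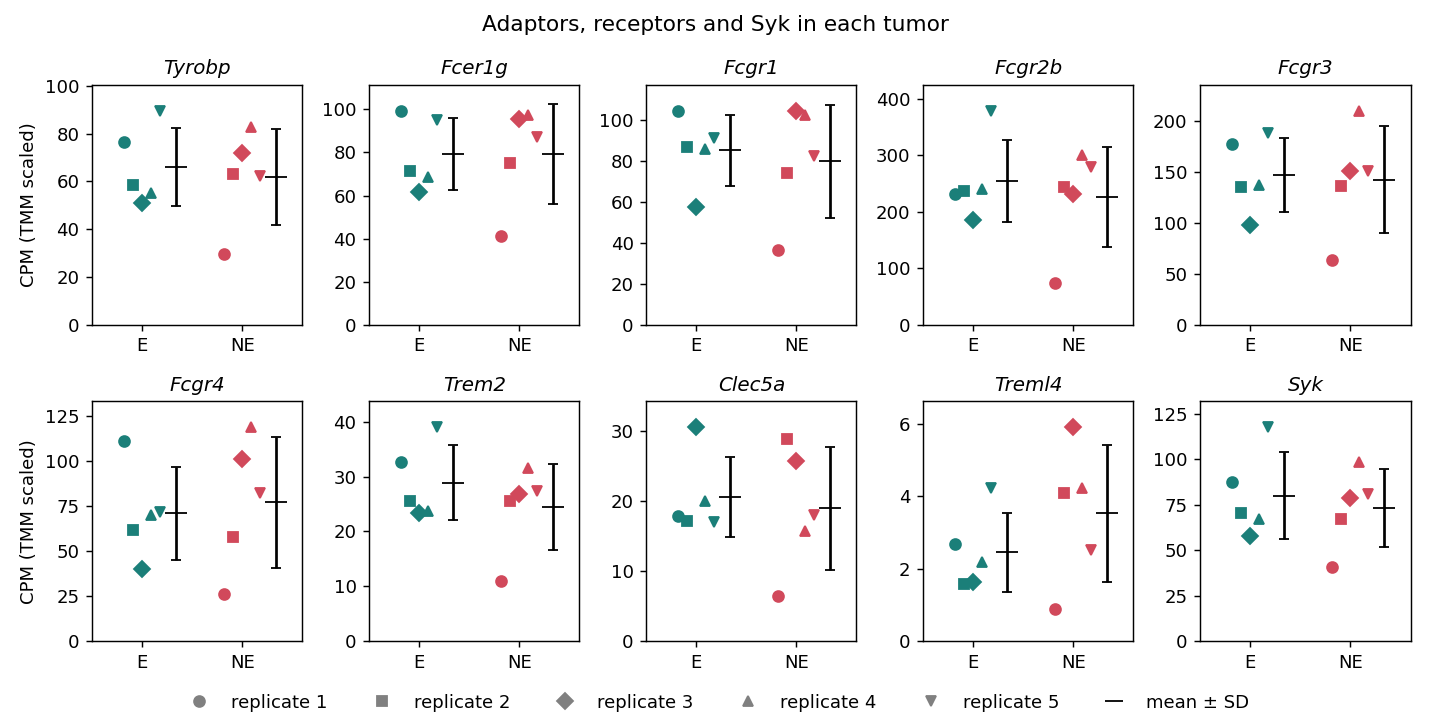
Each panel plots 1 member, with the TMM-scaled CPM of each tumor on the y axis from 0 and the groups E and NE on the x axis; symbols mark the replicate number, and the bars are the mean ± SD of 5 tumors. NE1 (29.4 CPM for Tyrobp) is the lowest point in every panel, and the groups overlap in all 10.

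Among the activating Fc gamma receptors, Fcgr1 (the high-affinity receptor for IgG) was at 105, 87.0, 57.4, 85.9 and 91.0 CPM in E1 to E5 and at 36.3, 74.3, 104, 102 and 82.3 in NE1 to NE5. Fcgr3, a low-affinity receptor, was at 178, 135, 97.8, 137 and 189 CPM in E and at 63.3, 136, 151, 210.2 and 151 in NE. For both genes E3 was the lowest of E and NE1 the lowest of NE, as for the adaptors. Fcgr4, the receptor for IgG2a and IgG2b, varied more. It was at 111, 61.8, 39.9, 69.8 and 71.7 CPM in E and at 26.0, 57.9, 101, 119 and 81.9 in NE, a ratio of 4.56 between the highest and the lowest tumor against 2.88 for Fcgr1 and 3.32 for Fcgr3. E5, the tumor with the most Tyrobp, was only in the middle of the range for Fcgr4.

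The inhibitory receptor Fcgr2b had the outlying tumors at both ends. It was at 232, 237, 186, 241 and 379 CPM in E1 to E5 and at 74.3, 244, 232, 300.3 and 280.0 in NE1 to NE5. E5 stood above the other 4 tumors of its group, and NE1 stood below all. From the lowest to the highest tumor the level rose by a factor of 5.11, and without NE1 by 2.04.

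The receptors that pair with DAP12 came below the Fc gamma receptors in FPKM. Trem2 was at 32.7, 25.5, 23.4, 23.7 and 39.0 CPM in E1 to E5 and at 11, 25.6, 26.8, 31.6 and 27.4 in NE1 to NE5, with the order of the tumors close to that of Tyrobp. Clec5a was at 17.9, 17.1, 30.6, 20.1 and 17.1 CPM in E and at 6.49, 28.9, 25.7, 15.7 and 18 in NE. Its order was another one, since E3 was the highest of all tumors and NE4 the second lowest, where Tyrobp was low in E3 and high in NE4. For Clec5a in E3 the unscaled share of the total count was 30.2 CPM (95% Wilson interval 27.9 to 32.6), and in NE4 it was 14.9 (13.4 to 16.6), so that the gap exceeded the counting error. Treml4 was at 2.68, 1.57, 1.62, 2.18 and 4.23 CPM in E and at 0.891, 4.10, 5.90, 4.22 and 2.52 in NE. With 21 to 134 reads per tumor it was the least counted member, and its unscaled share in NE1 was 0.909 CPM (95% Wilson interval 0.595 to 1.39) against 5.90 (4.98 to 6.98) in NE3.

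Syk, the kinase that both adaptors recruit, was at 87.7, 70.5, 57.6, 67.0 and 118 CPM in E1 to E5 and at 40.9, 67.2, 78.8, 98.5 and 80.7 in NE1 to NE5. The tumors with the most Syk, E5 and NE4, were also those with the most Tyrobp.

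No difference between E and NE passed the test in any of the 10 members. In the fit over all genes, 0 of 13517 genes (background 0%) had an FDR of at most 0.05 with a fold change of at least 2 (edgeR's quasi-likelihood test), and DESeq2 and limma gave 0 as well. An unadjusted p of 0.05 or less was reached by 0 of 10 members and by 4.86% of all genes (657 genes with edgeR, 800 with DESeq2 and 644 with limma). The CPM of the groups overlapped for all 10 members, and 0.725% of all genes had groups without overlap. Log2 fold changes of E against NE, with their standard errors, were 0.10 ± 0.25 for Tyrobp and -0.0005 ± 0.23 for Fcer1g. They were 0.09 ± 0.26 for Fcgr1, 0.05 ± 0.28 for Fcgr3, -0.12 ± 0.38 for Fcgr4 and 0.17 ± 0.33 for Fcgr2b. For the kinase Syk the value was 0.13 ± 0.24. The receptors of DAP12 had 0.24 ± 0.26 (Trem2), 0.12 ± 0.34 (Clec5a) and -0.52 ± 0.46 (Treml4). Their FDR values lay between 0.897 (Treml4) and 0.9997 (Fcer1g), and the exact two-sided permutation test of single members gave p from 0.429 (Treml4) to 0.952 (Fcgr4), where 5 against 5 tumors allow no p under 0.00794.

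How far a change could have gone unseen is given by the interval of 2 standard errors on either side. For Tyrobp it ran from -0.41 to 0.60 on the log2 scale, for Fcer1g from -0.45 to 0.45 and for Syk from -0.36 to 0.61. It was widest for Treml4, from -1.43 to 0.39, and for Fcgr4, from -0.87 to 0.63. The median log2 fold change was 0.09 over the 10 members and -0.01 over all genes tested. Without NE1, 6 of the 7 positive fold changes turned negative, with -0.081 for Tyrobp, -0.093 for Fcgr1, -0.14 for Fcgr3, -0.049 for Fcgr2b, -0.10 for Clec5a and -0.023 for Syk. Trem2, the seventh, was then at 0.05. Treml4 was at -0.77 without NE1 (FDR 0.537 with edgeR) and at -0.80 with the mean of the macrophage markers as a covariate (FDR 0.576 with edgeR), and in both fits its p before adjustment was at most 0.05. Without NE1, 1251 of 13635 genes reached that level, and 1 of 10 members did. For the fit with the covariate, the share of all genes is not given here.

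Most of the receptors followed Tyrobp across the 10 tumors. A gene was said to follow an adaptor when the slope of its log2 level on the log2 level of the adaptor was positive at an FDR of at most 0.05 over all genes (edgeR). By this measure 8 of the 9 other members followed Tyrobp, where the background was 7.56% of all genes (1022 of 13516). The exception was Clec5a. A slope of 1 means that the gene and the adaptor changed by the same factor.

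Trem2 lay closest to Tyrobp among the members. Pearson's r of log2(CPM + 1) was 0.976 and Spearman's rho 0.952 (10 tumors, permutation p = 2.0e-05 and 1.5e-04), and the slope was 1.06 ± 0.10 (SE). Only 0.244% of all genes had an r with Tyrobp at least as high. The other adaptor, Fcer1g, had r = 0.967, rho = 0.903 and a slope of 0.87 ± 0.09. Fcgr3 had r = 0.968, rho = 0.927 and a slope of 1.09 ± 0.10, and Syk had r = 0.964, rho = 0.939 and a slope of 0.92 ± 0.09. For these 4 genes r stayed between 0.922 and 0.943 without the 2 tumors farthest from the median of Tyrobp (NE1 and E5).

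The other Fc gamma receptors were more loosely tied to Tyrobp. Fcgr1 had r = 0.913 (rho = 0.782, slope 0.97 ± 0.15), and r was 0.823 without NE1 and E5. Fcgr4 had r = 0.869 (rho = 0.782) with a steeper slope of 1.36 ± 0.25, and r was 0.910 without NE1 and E5. Fcgr2b had r = 0.927 and a slope of 1.29 ± 0.19, but a rho of only 0.673, and r fell to 0.605 without those tumors. Its agreement with Tyrobp therefore rested in good part on the lowest and the highest tumor. Treml4 had r = 0.814 (rho = 0.867, slope 1.63 ± 0.38, FDR 0.0230 with edgeR), with 0.699 without NE1 and E5.

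**Figure D2:**
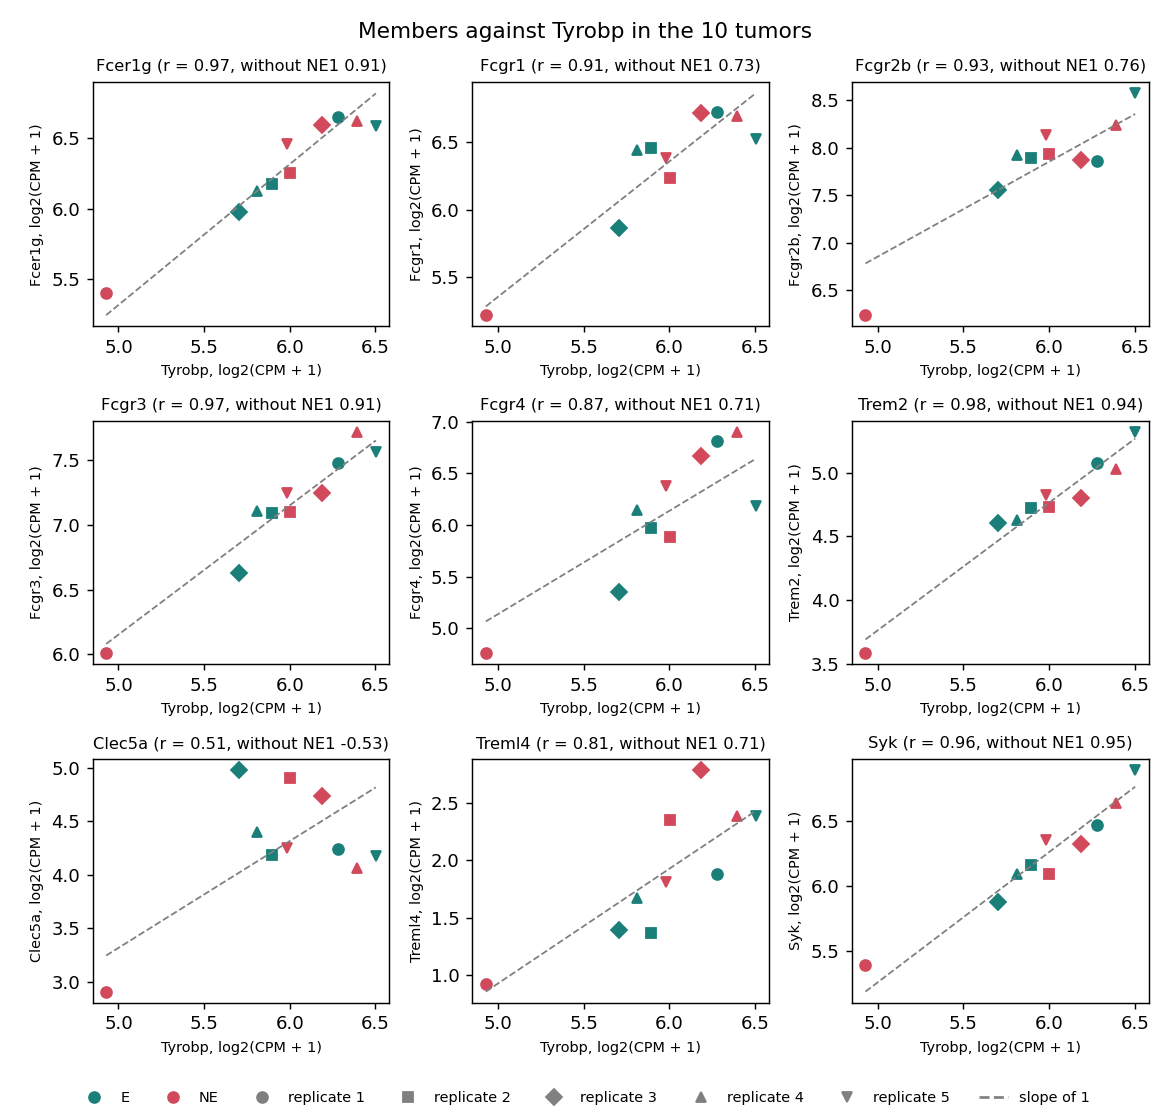
Each panel plots the log2(CPM + 1) of 1 member (y axis) against that of Tyrobp (x axis) in the 10 tumors, with E in green, NE in red, 1 symbol per replicate number and a dashed line of slope 1. The points of Trem2 (r = 0.976) lie along the line, and those of Clec5a (r = 0.509, or -0.531 without NE1) do not.

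Measured against Fcer1g, the same 8 of 9 counted as following, Tyrobp in place of Fcer1g, with a background of 4.92% of all genes (665 of 13516). The slopes were 1.23 ± 0.13 for Fcgr3 (r = 0.959), 1.13 ± 0.15 for Fcgr1 (r = 0.942) and 1.64 ± 0.19 for Fcgr4 (r = 0.944). The 3 receptors that assemble with the gamma chain thus all rose with it, Fcgr4 with the steepest slope of the 3. This was not particular to them. Trem2 (1.14 ± 0.17), Fcgr2b (1.39 ± 0.27) and Treml4 followed Fcer1g as well, and Clec5a did not. Fcgr4 ran closer to Fcer1g (rho = 0.927) than to Tyrobp (rho = 0.782), and Fcgr2b less close (rho = 0.442 with Fcer1g). Whether these differences between the adaptors exceeded chance was not tested. Treml4, with a slope of 1.85 ± 0.42 on Fcer1g (FDR 0.0281 with edgeR), missed the threshold without E3, E5, NE3 or NE4 as well as without NE1 (FDR 0.0706, 0.0571, 0.0523, 0.0597 and 0.234). Without NE1 and E3, the tumors farthest from the median of Fcer1g, r with Fcer1g was 0.826 for Fcgr3, 0.734 for Fcgr1, 0.813 for Fcgr4 and 0.390 for Fcgr2b.

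NE1 carried much of this. Without it, 4 of 9 members followed Tyrobp, with a background of 1.13% of all genes, and 0 of 9 followed Fcer1g, with a background of 0.066%. The 4 were Syk (slope 1.11 ± 0.13, FDR 0.00961), Trem2 (0.84 ± 0.14, FDR 0.0250), Fcgr3 (1.09 ± 0.17, FDR 0.0241) and Fcer1g (0.86 ± 0.15, FDR 0.0299), all with edgeR. For Fcgr1, Fcgr2b, Fcgr4 and Treml4 the slopes on Tyrobp were 0.73 ± 0.24, 0.82 ± 0.23, 1.38 ± 0.43 and 1.79 ± 0.65, still positive but with FDR values of 0.109 to 0.163 (edgeR). On Fcer1g, the slope of Tyrobp just missed the threshold (0.995 ± 0.17, FDR 0.0551 with edgeR). Over the 28 pairs of members other than Clec5a and Treml4, r ran from 0.765 to 0.976 with NE1 and from 0.406 to 0.959 without it.

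**Figure D3:**
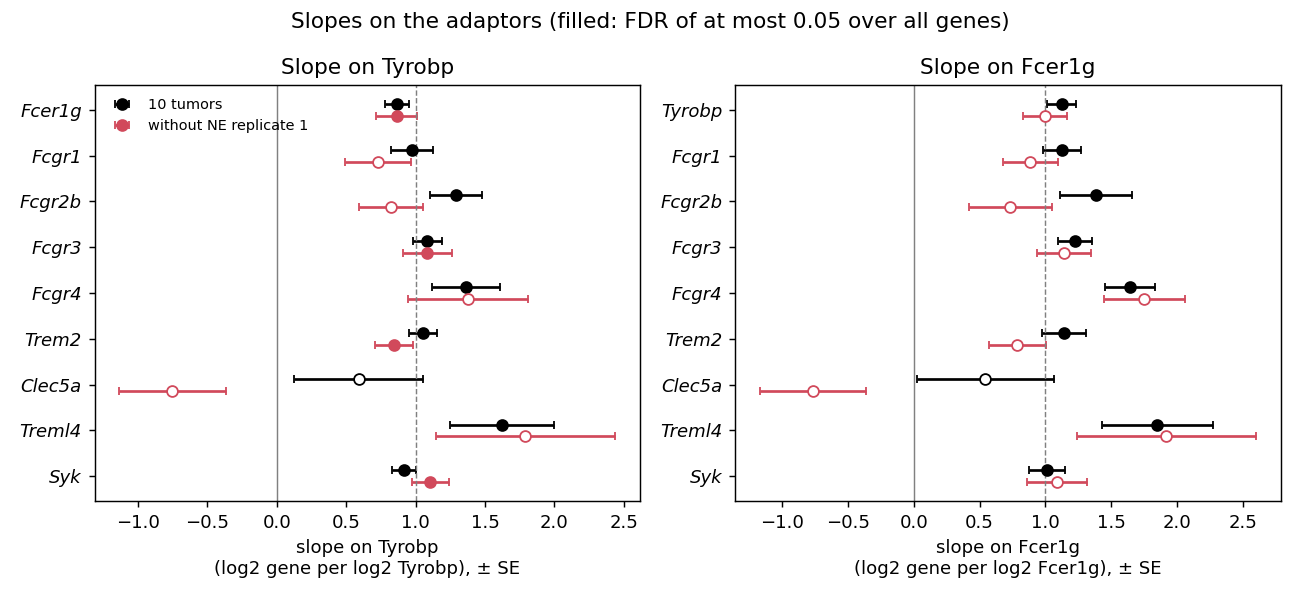
Points are the slopes of each member on Tyrobp (left) and on Fcer1g (right), in log2 units per log2 unit with bars of ± 1 SE, for the 10 tumors (black) and without NE1 (red); filled points have an FDR of at most 0.05 over all genes. Without NE1, 4 points stay filled on Tyrobp and 0 on Fcer1g, and Clec5a moves to -0.75.

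The markers of macrophages and monocytes moved with the adaptors. Their mean log2 level over 16 genes correlated with Tyrobp at r = 0.970 (rho = 0.939, permutation p = 3.0e-05, adjusted p = 9.0e-05 over 3 relations) and with Fcer1g at r = 0.922 (rho = 0.879), and 14 of the 16 markers followed Tyrobp and 10 followed Fcer1g. Without NE1 and E5 these values of r were 0.903 and 0.867. Without NE1 alone, 6 of the 16 markers followed Tyrobp and 2 followed Fcer1g (C1qc and C1qb). For this and the lists below, the shares of all genes were 7.56% for Tyrobp and 4.92% for Fcer1g. Without NE1 they were 1.13% and 0.066%. With this mean as a further term in the model, 0 of 9 members followed either adaptor, and neither did any of the 13516 genes. The mean was nearly collinear with the adaptors (r = 0.970 and 0.922 over 10 tumors). That fit could therefore hardly separate them, and no conclusion is drawn from its count of 0. The number of macrophages in the tumors was not measured, and its part in the result was not tested. Other marker lists had high correlations too. The mean log2 level of 6 T cell markers had r = 0.914 with Tyrobp and 0.922 with Fcer1g. For 9 dendritic cell markers r was 0.901 and 0.843. Without NE1, r with Tyrobp and Fcer1g was 0.923 and 0.780 for macrophages and monocytes, 0.777 and 0.803 for T cells, and 0.677 and 0.527 for dendritic cells. Of the other lists, 5 of 8 fibroblast markers, 5 of 9 dendritic cell markers and 4 of 6 T cell markers followed Tyrobp as well, and 0 in each of these lists did so without NE1. Of 6 neutrophil markers tested, 2 (Retnlg and Csf3r) followed Tyrobp both with and without NE1. Both also followed Fcer1g, as did 4 of 6 T cell markers, and without NE1 0 in either list did so. Of the 8 markers of natural killer cells, which use both adaptors, 0 followed Tyrobp and 1 followed Fcer1g. Another of them, Prf1 (perforin), went against Tyrobp with a slope of -1.17 ± 0.27 (FDR 0.0239 with edgeR), and 0 of 8 passed in either direction without NE1.

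Clec5a was the member that did not move with the adaptors. Its slope was 0.59 ± 0.47 on Tyrobp (FDR 0.519 with edgeR) and 0.54 ± 0.52 on Fcer1g (FDR 0.622). With Tyrobp, r was 0.509 (permutation p = 0.141) and rho was -0.200 (permutation p = 0.581), and 18.5% of all genes had an r at least as high. The positive r rested on NE1, in which both genes were lowest. Without it r was -0.531 and the slope -0.75 ± 0.38 (FDR 0.265 with edgeR), so that no relation of either sign passed the threshold. The 9 pairs of Clec5a with the other members had r between 0.310 (Syk) and 0.585 (Fcgr2b), and between -0.751 and 0.0415 without NE1. Against the macrophage and monocyte markers r was 0.565 (rho = -0.321, permutation p = 0.123), and -0.741 without NE1 and E5. The genes whose pattern over the 10 tumors was most like that of Clec5a, looked up after its values were seen, were Evi2a (r = 0.955), Tmem128 (0.939), Capza1 (0.923), Tmem168 (0.917) and Msr1 (0.916). Msr1, the macrophage scavenger receptor, is itself among the 16 markers of macrophages.

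Each member was also set against Tyrobp within a tumor, whichever adaptor it pairs with. The difference removes what the 2 genes have in common only where the slope on Tyrobp is 1. For members with other slopes, such as Treml4 (1.63) and Fcgr4 (1.36), it still varies with the level of Tyrobp. The difference in log2(CPM + 1) from Tyrobp was taken in each tumor and compared between the groups, and 0 of 9 members passed an adjusted p of 0.05 (background 0% of 13516 genes, exact permutation test for each gene). The share of all genes with an unadjusted exact p of at most 0.05 is not given here. The unadjusted p-values of Trem2 and Treml4 below therefore have no background beside them. Trem2 less Tyrobp was -1.20, -1.17, -1.10, -1.18 and -1.18 in E1 to E5 and -1.34, -1.27, -1.39, -1.36 and -1.16 in NE1 to NE5. Relative to Tyrobp, Trem2 was thus higher in E than in 4 of the 5 NE tumors, with NE5 inside the range of E. The group difference was 0.14 on the log2 scale (exact two-sided permutation test, p = 0.0397, adjusted p = 1), and 0.24 with Fcer1g as the reference (exact permutation test, p = 0.0159, adjusted p = 1). Leaving out 1 tumor at a time gave 0.12 to 0.17, with an exact p of 0.00794 to 0.0714 that stayed at or under 0.05 in 5 of 10 cases.

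Treml4 went the other way. Its level less that of Tyrobp was -4.40, -4.53, -4.31, -4.14 and -4.12 in E1 to E5 and -4.01, -3.65, -3.40, -4.01 and -4.17 in NE1 to NE5. Again 4 of the 5 NE tumors lay outside the range of E, here above it, and NE5 lay inside. The group difference was -0.45 (exact two-sided permutation test, p = 0.0238, adjusted p = 1), and from -0.53 to -0.34 when 1 tumor at a time was left out. At so low a level the value added before the logarithm matters, and with 0.1 in place of 1 the difference was -0.51 (exact permutation test, p = 0.0952). With Fcer1g as the reference it was -0.35 (exact permutation test, p = 0.127). For the other 7 members the exact permutation test gave p from 0.198 (Fcer1g) to 0.992 (Syk). Clec5a had the widest spread relative to Tyrobp, from -2.33 in NE4 to -0.72 in E3, and Trem2 the narrowest (SD 0.0999 over 10 tumors, against 0.524 for Clec5a).

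**Figure D4:**
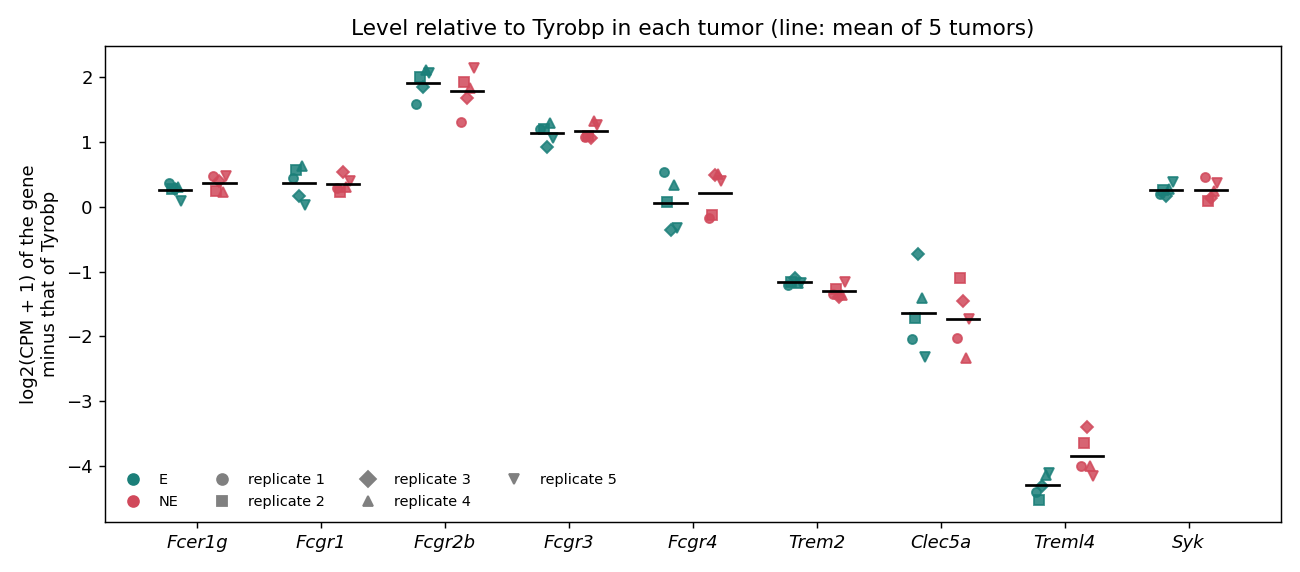
For each member, the log2(CPM + 1) less that of Tyrobp in the same tumor (y axis) is plotted for E (green) and NE (red), with 1 symbol per replicate number and a line at the mean of 5 tumors. Trem2 averages -1.17 in E and -1.30 in NE, Treml4 -4.30 and -3.85, and in both NE5 sits among the E tumors.

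The balance of activating to inhibitory Fc gamma receptors was computed as the summed FPKM of Fcgr1, Fcgr3 and Fcgr4 over that of Fcgr2b. It was 5.78, 3.93, 3.43, 4.02 and 3.06 in E1 to E5 and 5.55, 3.64, 5.18, 4.92 and 3.81 in NE1 to NE5. Activating transcripts exceeded the inhibitory one in every tumor, and both the highest and the lowest ratio were in E. Over 5 tumors each, E averaged 4.04 (SD 1.05) and NE averaged 4.62 (SD 0.849), a difference within the spread (exact two-sided permutation test, p = 0.389). The ratio is in FPKM and depends on the gene length used. With the length of the main transcript it ran from 2.17 to 3.99, and the highest tumor exceeded the lowest by a factor of 1.84, against 1.89 with the lengths of the table. With the lengths of the table, Fcgr3 supplied 48.4% ± 3.62 of the activating sum, Fcgr4 33.0% ± 4.09 and Fcgr1 18.6% ± 1.65 (SD, n = 10). The activating sum exceeded the FPKM of the gamma chain by a factor of 1.91 (SD 0.221) in E and 1.87 (SD 0.278) in NE, with p = 0.794 by the exact permutation test. These shares and factors were not recomputed with the main transcripts. Per kilobase of these, Fcgr3 had 107, Fcgr4 58.7, Fcgr1 31.9 and Fcer1g 117, against 83.3, 58.7, 31.9 and 90.6 FPKM. Of the 7 ratios compared between the groups, none had an exact p under 0.167.

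**Figure D5:**
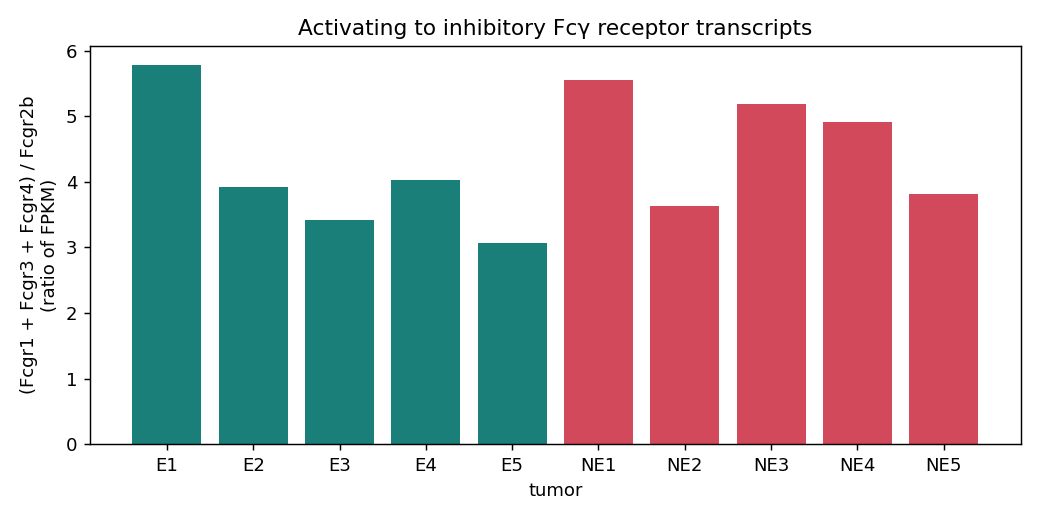
Bars give the summed FPKM of Fcgr1, Fcgr3 and Fcgr4 divided by the FPKM of Fcgr2b (y axis, from 0) in each of the 10 tumors (x axis; E green, NE red). The ratio is highest in E1 (5.78) and lowest in E5 (3.06), so that E spans the whole range of NE.

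By FPKM the members ordered as Tyrobp, Fcer1g, Fcgr3 (83.3 ± 23.9), Fcgr4 (58.7 ± 23.2), Fcgr2b (41.5 ± 13.5), Fcgr1 (31.9 ± 8.37), Syk (8.18 ± 2.29), Trem2 (5.39 ± 1.49), Clec5a (5.14 ± 1.81) and Treml4 (1.49 ± 0.774), each as mean ± SD of 10 tumors. Neighbours in this order differed at p under 0.05 by an exact paired permutation test except Tyrobp and Fcer1g (exact p = 0.0977) and Trem2 and Clec5a (exact p = 0.518). Fcer1g and Fcgr3 differed by only 0.14 ± 0.16 on the log2 scale (SD over 10 tumors, Fcer1g higher in 8, exact p = 0.0215). The order rests on the gene lengths of the authors' table. For Trem2 that length is 4946 bases, where the main transcript has 1088, so that its FPKM is 4.55 times lower than with the main transcript. Per kilobase of main transcript, Trem2 had 24.5 ± 6.76 and stood above Syk (14.3 ± 4.00) and Clec5a (5.26 ± 1.86), and Fcgr2b (67.8 ± 22.1) and Fcgr4 (58.7 ± 23.2) did not differ (exact paired permutation test, p = 0.135). Fcer1g (117 ± 27.7) then came before Tyrobp (113 ± 30.5), without a difference (exact paired permutation test, p = 0.139).

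The genes most like Tyrobp over the 10 tumors were Sirpa (r = 0.994), Lcp2 (0.993), Entpd1 (0.991), Hcls1 (0.990) and C1qc (0.989). Sirpa is the ITIM receptor that binds CD47, Lcp2 encodes the scaffold SLP-76 downstream of Syk, and C1qc is a subunit of complement C1q made by macrophages. Most like Fcer1g were Tbc1d9 (r = 0.982), Cyba (0.979), Ikzf1 (0.979), C1qc (0.979) and Lst1 (0.979), where Cyba encodes a subunit of the phagocyte oxidase. These r are descriptions across the same 10 tumors and share the low value of NE1. Treml4, looked up after its values were seen, was most like Dnase1l3 (r = 0.964), Spic (0.95) and Abcb1b (0.927), where Spic encodes a transcription factor of red pulp macrophages. Spic averaged only 0.194 FPKM over the 10 tumors, and Treml4 was itself the least counted member, so that this match rests on few reads.

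The other genes of the pathway were read from lists fixed by symbol. Of 6 other Fc receptors tested, 2 (Fcgrt and Fcrla) followed Tyrobp (background 7.56%) and 0 followed Fcer1g (background 4.92%). Without NE1, 0 followed either (backgrounds 1.13% and 0.066%). The most abundant of them was Fcgrt, the neonatal Fc receptor that recycles IgG, at 19.7 FPKM ± 8.42 (SD, n = 10) and with a slope of 1.11 ± 0.22 on Tyrobp. Fcer1a, the binding chain for IgE, had a slope of 1.54 ± 0.60 (FDR 0.149 with edgeR) and Fcrl5 one of -1.06 ± 0.69 (FDR 0.412). Of 13 immunoglobulin ligands listed by symbol, 1 was found in the authors' table, and the others could not be read. That gene was Jchain, which links IgA and IgM. It was at 3.44 to 44.3 CPM in E and 0.382 to 103 in NE.

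Of 23 other receptors that pair with DAP12 or the gamma chain, 10 followed Tyrobp (background 7.56%) and 9 followed Fcer1g (background 4.92%). Without NE1, 3 (Cd300ld, Cd300c2 and Cd300lb) and 0 did so (backgrounds 1.13% and 0.066%). Against the background of 4.86%, 4 of the 23 had an unadjusted p of at most 0.05 between the groups, 2 in each direction, and none had an FDR under 0.897. Those with the smallest p were Cd300e and Trem1, which amplifies inflammation through DAP12 in neutrophils and monocytes. Trem1 averaged 4.09 FPKM (SD 1.25) in the 5 tumors of E and 2.07 (SD 0.654) in those of NE, a log2 fold change of 0.94 ± 0.27 (FDR 0.897 with edgeR). The 2 receptors had opposite fold changes (-1.09 ± 0.30 in Cd300e), and neither followed Tyrobp (slopes -0.38 ± 0.49 and 1.01 ± 0.39, FDR 0.726 and 0.151 with edgeR). The neutrophil markers were higher in E5 than elsewhere, as given above, and their part in the value of Trem1 was not tested. Clec4n, which encodes Dectin-2 and signals through the gamma chain, was the most abundant of the list at 52.7 FPKM ± 9.12 (SD, n = 10), with a slope of 0.36 ± 0.14 on Tyrobp (FDR 0.161 with edgeR).

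Upstream and downstream of Syk the shares exceeded the background of 7.56% of all genes for Tyrobp and 4.92% for Fcer1g. Among the marker lists, 14 of 16 macrophage and monocyte, 5 of 8 fibroblast and 0 of 8 natural killer cell markers followed Tyrobp. Of 11 Src family kinases and regulators, 7 followed Tyrobp and 7 Fcer1g, among them Lyn (slope on Tyrobp 0.76 ± 0.09) and the phosphatase Ptprj (0.57 ± 0.08). Src (-0.09 ± 0.09) and its inhibitor Csk (0.10 ± 0.07) did not pass the test. Of 24 signaling proteins downstream of Syk, 16 followed Tyrobp and 16 Fcer1g, with Lcp2 at 1.09 ± 0.06, Plcg2 at 0.77 ± 0.08 and Prkcd at 0.39 ± 0.07. Nfatc1 (0.18 ± 0.11) and Bcl10 (-0.01 ± 0.06) did not pass. Of 11 other chains with an ITAM or a YINM motif, 7 followed Tyrobp and 4 Fcer1g. The 7 included Hcst (DAP10, 1.07 ± 0.26), Nfam1 (1.19 ± 0.12) and the beta-glucan receptor Clec7a (0.72 ± 0.18). The rest of the 7 were Cd3d (1.08 ± 0.22), Cd3e (0.96 ± 0.18), Cd247 (1.01 ± 0.23) and Cd79a (2.04 ± 0.48). Of these, Cd3d and Cd3e are also among the T cell markers and Cd79a among the B cell markers. The 4 on Fcer1g were Cd3d, Cd3e, Cd247 and Nfam1. Clec9a (0.43 ± 0.31) did not pass on Tyrobp. Without NE1, 0 of 11 Src family genes, 6 of 24 genes downstream of Syk and 1 of 11 chains (Nfam1) followed Tyrobp (background 1.13%). In each list 0 then followed Fcer1g (background 0.066%).

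Much of the inhibitory side moved with the adaptors too. Of 25 ITIM receptors and inhibitory enzymes, 17 followed Tyrobp (background 7.56%) and 13 Fcer1g (background 4.92%). Without NE1, 3 (Cd300a, Sirpa and Pirb) and 0 did so (backgrounds 1.13% and 0.066%). Sirpa had a slope of 1.04 ± 0.06 on Tyrobp and Pirb, the paired immunoglobulin-like receptor B, one of 1.25 ± 0.10. Of the phosphatases that ITIMs recruit, Ptpn6 (SHP-1) and Inpp5d (SHIP1) had smaller slopes, at 0.57 ± 0.08 and 0.28 ± 0.06. A further one, Ptpn11 (SHP-2), did not pass (0.02 ± 0.07, FDR 0.933 with edgeR). The adaptor proteins Dok3 (0.69 ± 0.17) and Dok1 (-0.14 ± 0.12) differed, and Dok1 did not pass the test. Between the groups 1 of the 25 genes, the ubiquitin ligase gene Cblb, had an unadjusted p of at most 0.05, where the background was 4.86%, with a log2 fold change of 0.17 ± 0.07 (FDR 0.897 with edgeR).

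Ligands of TREM2 and genes of TREM2 macrophages had slopes of both signs. Of 12 tested, 3 followed Tyrobp (background 7.56%) and 2 followed Fcer1g (background 4.92%). Apoe, a ligand of TREM2, had a slope of 1.74 ± 0.20 on Tyrobp and was at 272 FPKM ± 122 (SD, n = 10). Lpl and Lipa, which encode lipases, were the others, at 2.02 ± 0.52 and 0.25 ± 0.05. Spp1 (osteopontin), the most abundant of the list at 1023 FPKM ± 275 (SD, n = 10), had a negative slope of -0.69 ± 0.20 that missed the threshold (FDR 0.0614 with edgeR), and so had Gpnmb (-0.50 ± 0.15, FDR 0.0697). Lgals3 (galectin-3) had -0.10 ± 0.15 (FDR 0.773). Without NE1, 1 of the 12 followed Tyrobp (Apoe), Spp1 passed with a negative slope, and 0 followed Fcer1g. The part of these genes' expression by 4T1 cells was not tested.

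The promoters of members that moved together and of Clec5a are shown for comparison. In myeloid cells the transcription factor PU.1 binds sites with the core GAGGAA. The core was searched on both strands (as GAGGAA or TTCCTC) in the 250 bases before the start of each RefSeq transcript set (GRCm38.p6), and 23.3% of 32851 promoters hold it. Of the members, 9 had an entry, Tyrobp had none, and 7 of the 9 held at least 1 match (8 of 11 promoters), while Fcer1g and Fcgr2b held none. Clec5a and Treml4 held 2 each. The presence of the core did not separate Clec5a from the members that followed Tyrobp. The 4 printed here are Fcer1g (chr1:171234350-171234599), Fcgr1 (chr3:96293970-96294219), Fcgr3 (chr1:171059404-171059653) and Clec5a (chr6:40585806-40586055), all on the reverse strand and 5′ to 3′ along the gene, with capitals for the core. A match is a description of the letters and not of a bound site.
Fcer1g: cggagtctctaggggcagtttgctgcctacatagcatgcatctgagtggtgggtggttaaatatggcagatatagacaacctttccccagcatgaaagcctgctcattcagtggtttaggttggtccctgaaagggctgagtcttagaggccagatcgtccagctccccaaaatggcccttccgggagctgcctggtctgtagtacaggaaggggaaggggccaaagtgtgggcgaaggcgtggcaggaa
Fcgr1: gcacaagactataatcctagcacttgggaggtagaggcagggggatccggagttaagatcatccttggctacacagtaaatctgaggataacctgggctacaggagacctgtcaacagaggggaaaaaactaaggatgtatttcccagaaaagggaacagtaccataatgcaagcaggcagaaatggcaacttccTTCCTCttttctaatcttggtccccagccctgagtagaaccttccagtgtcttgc
Fcgr3: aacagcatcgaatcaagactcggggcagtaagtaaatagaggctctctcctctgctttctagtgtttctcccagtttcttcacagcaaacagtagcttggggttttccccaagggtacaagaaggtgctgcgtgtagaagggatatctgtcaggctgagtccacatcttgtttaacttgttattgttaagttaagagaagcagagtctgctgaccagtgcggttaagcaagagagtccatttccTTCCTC
Clec5a: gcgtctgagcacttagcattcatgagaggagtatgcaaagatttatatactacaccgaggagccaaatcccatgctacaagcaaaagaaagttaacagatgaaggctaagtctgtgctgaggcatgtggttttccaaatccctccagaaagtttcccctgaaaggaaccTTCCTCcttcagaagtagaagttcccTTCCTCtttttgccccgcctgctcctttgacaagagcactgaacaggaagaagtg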

How the data were processed

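Libraries of 10 tumors (E, n = 5; NE, n = 5) were grouped by the sample labels. Alignment by the authors used Hisat2, and Stringtie gave the expression values. The methods name the rat assembly Rnor 6.0, while the table's identifiers are those of mouse genes, and its build is not named. The authors deposited a read count per gene and tumor, not normalized, by a counting step that the sources used here do not give. The deposited FPKM are the counts scaled by library total and gene length. Sequences and gene structures came from GENCODE (GRCm38) and RefSeq (GRCm38.p6), and coordinates were not converted.

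The test for counts was edgeR's quasi-likelihood test (version 4.0.16, R 4.3.3), after TMM scaling and the filterByExpr filter with the group given. P-values were adjusted over all genes (Benjamini-Hochberg), and calls needed an FDR of at most 0.05 and a fold change of at least 2. Slopes used the centred log2(CPM + 1) of the adaptor. Single values were compared by exact permutation over 252 assignments (scipy 1.17.1), and correlations with 100000 permutations. DESeq2 1.42.0 and limma 3.58.1 were alternatives. Scripts were tested on simulated data. Wilson intervals hold for counting error alone, since reads without molecular identifiers can be PCR duplicates. The members and lists were chosen with earlier results of these data known. Named genes were the 10 members, in each list 2 genes with the smallest p and the most abundant one, and the 5 most alike for each adaptor. Lyn, Lcp2, Plcg2, Nfam1, Cd3d, Cd3e, Cd247, Cd79a, Sirpa, Pirb, Ptpn6, Ptpn11, Inpp5d, Apoe, Lpl, Lipa, Prf1 and Fcrla, the genes most like Clec5a and Treml4, and the genes listed without NE1 were named after their values were seen, and the 7 ratios were also chosen then.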

Additional observations from a re-analysis of the deposited data

Results flagged for a closer look

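Of 52 groups of 5 tumors examined for a single tumor far from the rest, 2 stood out, where chance alone gives about 2.6. Fcgr2b in E5 had 379 CPM, while the next E tumor had 241 and the lowest 186. Clec5a in E3 had 30.6 CPM, while the next E tumor had 20.1 and the lowest 17.1. E5 also had the highest fibroblast and neutrophil marker sums, and E3 the lowest macrophage marker sum of E, and the part of either in these values was not tested.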

How the results depend on the processing

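No member and no gene passed the threshold between the groups under any alternative with adjustment, and 657 genes did at an unadjusted p of at most 0.05, with no member among them. Of the members, Treml4 reached that level without NE1, where 1251 of 13635 genes did, and with the macrophage marker mean as a covariate. The members that followed Tyrobp numbered 4 to 8 when 1 tumor was left out and 0 with the macrophage marker mean as a further term. For Fcer1g they numbered 0 to 8 and 0. The low values when 1 tumor was left out, 4 and 0, were those without NE1. The macrophage marker mean was nearly collinear with the adaptors (r = 0.970 for Tyrobp and 0.922 for Fcer1g), so the fit with it could hardly separate them. With that term the slopes of Fcgr2b and Clec5a were -0.74 and -0.89 on Tyrobp and -0.38 and -0.59 on Fcer1g. The cause was not tested.

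Same-numbered tumors of E and NE did not deviate together (r from -0.325 to 0.316), so that the numbers were not taken as pairs. The study speaks of matched pairs, and what matched which mice is not given in the sources used here. With the replicate number as a block, 7 of 9 members followed each adaptor, Treml4 being the one lost (slopes 1.56 and 1.74, FDR 0.127 and 0.126 with edgeR), and the exact p of Trem2 and Treml4 relative to Tyrobp was 0.125 for both, where 0.0625 is the smallest p possible.

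Fold changes between the groups were small, and several changed sign. That of Fcer1g was 0.0019 with DESeq2, 0.039 without TMM, 0.0031 with no filter, 0.069 with limma and 0.027 with the replicate block. Fcgr4 was at 0.0072 with limma. With the macrophage marker mean as a covariate, Tyrobp was at -0.079, Fcgr1 at -0.052, Fcgr2b at -0.027, Fcgr3 at -0.13 and Syk at -0.059. Leaving out 1 tumor at a time gave log2 fold changes of -0.081 to 0.23 for Tyrobp, -0.16 to 0.093 for Fcer1g, -0.093 to 0.21 for Fcgr1, -0.049 to 0.31 for Fcgr2b, -0.14 to 0.24 for Fcgr3, -0.34 to 0.096 for Fcgr4, -0.10 to 0.32 for Clec5a and -0.051 to 0.27 for Syk, while Trem2 (0.050 to 0.36) and Treml4 (-0.80 to -0.25) kept their sign. It gave slopes of Clec5a of -0.75 to 0.88 on Tyrobp and -0.77 to 0.99 on Fcer1g. Relative to Tyrobp it gave group differences of -0.053 to 0.099 for Fcgr1, -0.071 to 0.022 for Fcgr3, -0.15 to 0.26 for Clec5a and -0.044 to 0.048 for Syk, and against Fcer1g the differences of Fcgr3 and Syk were 0.072 and 0.10. With 21 to 134 reads, Treml4 was the member most limited by depth.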
